A study of Homo sapiens with 9 samples.

Results

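The colony-stimulating factors and their receptors, 8 genes of the 56809 in the table, were followed through 9 libraries of a human breast cancer line in which the transcription cofactor LMO2 was targeted by short hairpins. CSF3R encodes the receptor of granulocyte colony-stimulating factor. It was chosen by its measured values, since it differed from control with both hairpins, and the other members, CSF2RA, CSF2RB, IL3RA, CSF1, CSF1R, CSF2 and CSF3, were added by family. The values of CSF3R against control are therefore given as a description, with no test. After a filter on low counts, 5 members could be tested (CSF3R, CSF2RA, CSF2RB, CSF1 and CSF1R) and 3 could not (IL3RA, CSF2 and CSF3).

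Colony-stimulating factors are secreted proteins that direct the growth and maturation of granulocytes and macrophages. CSF3R signals as a pair of identical chains, whereas CSF2RA and IL3RA are ligand-binding alpha chains that each need the shared beta chain CSF2RB. All of these act through JAK kinases and STAT3 or STAT5, while CSF1R is itself a tyrosine kinase and binds both CSF1 and IL34. Their best known site of action is the bone marrow, and several are also made or sensed by carcinoma cells. LMO2, known from blood cell formation, has no DNA-binding domain and joins TAL1, LDB1 and GATA factors into complexes at E-box and GATA motifs.

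The cells were MDA-MB-468, an established line from a breast adenocarcinoma. They had been infected with the lentiviral hairpin vector pSicoR without a hairpin (control), or with the same vector carrying shLMO2-1 or shLMO2-2, so that all 3 groups carried vector. Polyadenylated RNA was sequenced from 3 libraries of each group. The labels do not say whether the libraries of a group came from separate cultures, so p-values measure only the spread between these samples, which may be technical.

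The libraries held 15494486 to 23069456 estimated counts, with the shLMO2-2 libraries the deepest. LMO2 was scarce in all of them. Its counts were 4, 35 and 19 in control, 2, 1 and 6 with shLMO2-1, and 1, 4 and 3 with shLMO2-2. The shLMO2-1 libraries overlapped control and the shLMO2-2 libraries lay below it. LMO2 differed from control by a log2 fold change of -2.44 (edgeR adjusted p = 0.0907) with shLMO2-1 and of -3.02 (edgeR adjusted p = 0.0441) with shLMO2-2. The shLMO2-2 call was lost in 7 of the 9 fits without 1 library, all but those without control replicate 1 or shLMO2-1 replicate 3, with adjusted p-values up to 0.138 (without control replicate 2), and also with limma-voom and in a fit of only the groups compared. The mean of both hairpins differed by -2.73 (edgeR adjusted p = 0.0216), which did not pass without control replicate 2 (-2.03, edgeR adjusted p = 0.113), control replicate 3 or shLMO2-1 replicate 2. LMO2 overlaps an antisense gene, and the use of strand in the counting is not given in the sources used here. Control replicate 1 stood apart from the other controls on the first principal component, so the members are also given without it where that changes a result. All 10 epithelial markers of the line were detected. Their summed level was 16710 to 16994 CPM (counts scaled to library size) in control, 18524 to 19798 CPM with shLMO2-1 and 18007 to 20118 CPM with shLMO2-2. Of 16 blood cell markers, 10 had no count in any library.

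CSF3R and CSF2RA were the members with the widest differences between groups, in opposite directions. The bases just upstream of their annotated starts are shown because the complexes of LMO2 are known to sit at E-box (CANNTG) and GATA motifs. They are RefSeq sequences of GRCh38.p14, written 5′ to 3′ along the gene's own strand, with E-boxes in capitals.
CSF3R, chr1:36483315-36483564, minus strand: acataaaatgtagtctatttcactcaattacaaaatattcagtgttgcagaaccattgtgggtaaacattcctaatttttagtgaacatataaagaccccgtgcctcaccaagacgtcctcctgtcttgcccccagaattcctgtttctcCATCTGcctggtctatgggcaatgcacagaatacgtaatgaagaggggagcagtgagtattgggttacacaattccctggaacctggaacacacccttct
CSF2RA, chrX:1268564-1268799, plus strand: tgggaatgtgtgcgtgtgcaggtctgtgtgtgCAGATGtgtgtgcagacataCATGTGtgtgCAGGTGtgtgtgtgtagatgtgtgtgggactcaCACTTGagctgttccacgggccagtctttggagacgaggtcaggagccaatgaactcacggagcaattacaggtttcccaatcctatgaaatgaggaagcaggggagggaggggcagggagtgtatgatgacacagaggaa
RefSeq places the CSF3R start used here slightly upstream of the GENCODE one. It also has a second CSF3R start, whose upstream window (chr1:36482914-36483163) lies within annotated CSF3R exons and is not shown. That window held no E-box, no GATA, no STAT or C/EBP palindrome and 7 ETS cores. The CSF3R stretch shown held 1 E-box and the CSF2RA stretch 4. Neither held GATA on either strand. At least 1 E-box occurred in 61.8% and at least 1 GATA in 45.6% of the 35116 RefSeq promoter windows of 250 bases. How many windows held 4 E-boxes was not counted, so the 4 of CSF2RA have no background here. The ETS core GGAA, searched on both strands, had 5 matches in each stretch and occurred in 92.7% of all windows. The C/EBP palindrome TTGCNNAA, a motif of a family of myeloid factors, had 1 match upstream of CSF3R and none upstream of CSF2RA, against 9.05% of all windows. The STAT palindrome TTCNNNGAA had no match in either stretch and occurred in 6.57% of windows. None of the matches in the 2 stretches shown overlapped one another. A match of letters is a description and shows no binding.

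CSF3R lies on chromosome 1 from 36466043 to 36483278 on the minus strand (GRCh38, GENCODE release 29), and no other annotated gene overlaps it. Its counts in the 3 control libraries were 59, 69 and 68. With shLMO2-1 they were 198, 188 and 194, and with shLMO2-2 they were 358, 325 and 369. Scaled to library size, CSF3R stood at 3.42, 3.53 and 3.59 CPM in control, at 11.1, 11.01 and 12.8 CPM with shLMO2-1, and at 15.6, 15.1 and 16.6 CPM with shLMO2-2. The 3 groups formed 3 separate bands, with control lowest and shLMO2-2 highest. The group means were 3.51 ± 0.0890, 11.6 ± 0.991 and 15.7 ± 0.761 CPM (SD, n = 3 each), so the hairpin levels were 3.31 and 4.48 times that of control. In the fit over all genes this was a log2 fold change of 1.72 (SE 0.122) with shLMO2-1 and of 2.16 (SE 0.1197) with shLMO2-2. Because bulk RNA was measured, a change in the number of cells expressing a gene and a change in RNA per cell cannot be told apart.

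The difference between the hairpins was the 1 contrast of CSF3R that did not enter its choice. CSF3R was 0.44 higher on the log2 scale with shLMO2-2 than with shLMO2-1 (SE 0.109, 95% interval 0.20 to 0.67, edgeR adjusted p = 0.1196). All 3 shLMO2-2 libraries lay above all 3 shLMO2-1 libraries, yet the difference did not pass the threshold of 0.05. Over 18 alternative settings it lay between 0.39 and 0.50, with adjusted p-values from 0.0579 to 0.423. Between the hairpins, 0.768% of the 14709 tested genes were called, with 0.347% higher and 0.422% lower in shLMO2-2.

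**Figure D1:**
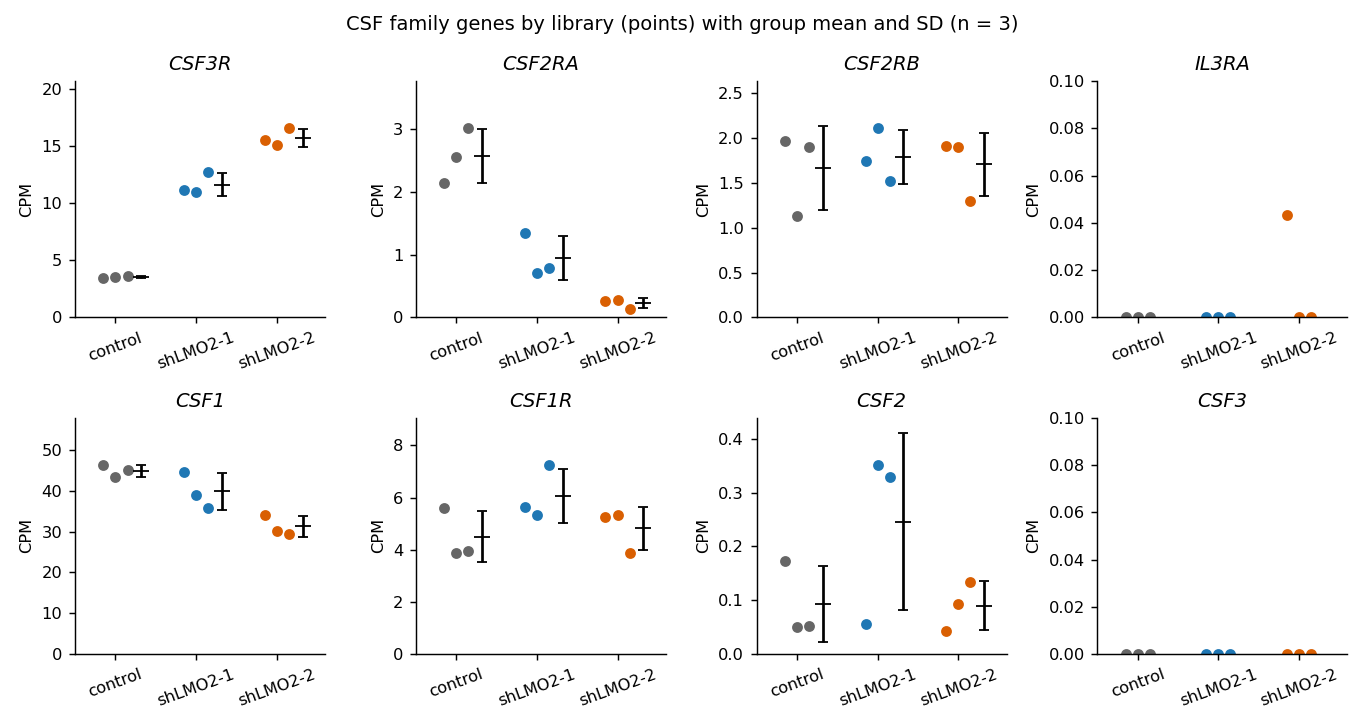
Level of each of the 8 members in every library, in CPM, with control, shLMO2-1 and shLMO2-2 as separate groups of 3 points and the group mean ± SD beside them (not drawn for IL3RA and CSF3). The mean of CSF3R is 3.51 CPM in control and 15.7 CPM with shLMO2-2, that of CSF2RA is 2.57 and 0.225 CPM, and CSF3 is at 0 in all 9 libraries.

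The genes nearest to CSF3R did not share the size of its difference. MRPS15, a mitochondrial ribosomal protein gene that begins 1606 bases away, had log2 fold changes of -0.02 and 0.20 with the 2 hairpins (edgeR adjusted p = 0.916 and 0.213). OSCP1, 15592 bases away on the same side, rose by 0.64 with shLMO2-1 (edgeR adjusted p = 0.0300) and by 0.62 with shLMO2-2 (edgeR adjusted p = 0.0315). For the mean of both hairpins OSCP1 rose by 0.63 (edgeR adjusted p = 0.0139), a call lost without control replicate 3 (0.62, edgeR adjusted p = 0.0554). Its calls with the single hairpins were each lost in several fits without 1 library, among them those without control replicate 1 (0.56 and 0.54, edgeR adjusted p = 0.0659 and 0.0796). On the other side, the nearest tested coding genes ZC3H12A and MEAF6 lay 991274 and 1009297 bases away. Neither passed in any contrast.

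Among 13261 tested genes with a mean of at least 1 CPM, the level of RARRES1 followed that of CSF3R most closely over the 9 libraries (Pearson r = 0.995 in log2 CPM). RARRES1, a retinoic acid responsive gene, stood at 84.9 ± 3.14 CPM in control, 208 ± 22.9 CPM with shLMO2-1 and 243 ± 15.9 CPM with shLMO2-2 (SD, n = 3 each). ELOVL6, a fatty acid elongase, came next with NCCRP1 and BST2 (r = 0.990 each), followed by RAB15, a small GTPase (r = 0.986). BST2, an interferon-inducible membrane protein that tethers virus particles, was at 14.8 ± 1.69, 32.4 ± 1.79 and 44.0 ± 2.06 CPM in the same order of groups (SD, n = 3 each). The most opposite patterns were those of CA2, a carbonic anhydrase (r = -0.992), LGALS8, a galectin (r = -0.989), and NPR3, the clearance receptor of natriuretic peptides (r = -0.987). CA2 was at 11.95 ± 0.373, 1.32 ± 0.230 and 0.710 ± 0.351 CPM (SD, n = 3 each). These correlations describe 9 libraries that fall into 3 groups, and any gene with the same order of groups scores highly.

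CSF2RA, the ligand-binding chain of the receptor for granulocyte-macrophage colony-stimulating factor, went the other way. It lies in the pseudoautosomal region shared by chromosomes X and Y, from 1268800 to 1310381 on the plus strand. The table has 1 row under this symbol. Whether it holds the reads of both copies is not given in the sources used here, and the copies cannot be told apart. The gene overlaps MIR3690 and the pseudogene RNA5SP498. Its counts were 37, 50 and 57 in control, 24, 12 and 12 with shLMO2-1, and 6, 6 and 3 with shLMO2-2. In CPM these were 2.14, 2.56 and 3.01, then 1.35, 0.703 and 0.791, then 0.261, 0.278 and 0.135. Every shLMO2-1 library lay below every control, and every shLMO2-2 library lay below every shLMO2-1 library. Control was 2.71 times the mean of shLMO2-1 and 11.5 times that of shLMO2-2.

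CSF2RA fell by 1.43 on the log2 scale with shLMO2-1 (SE 0.347, edgeR adjusted p = 0.0301) and its log2 fold change was -3.48 with shLMO2-2 (SE 0.404, edgeR adjusted p = 0.000738). For the mean of both hairpins it fell by 2.46 (SE 0.303, edgeR adjusted p = 0.000754). The share of tested genes called was 8.42% with shLMO2-1 (4.54% higher, 3.88% lower), 8.97% with shLMO2-2 (4.94% higher, 4.04% lower) and 12.4% for the mean of both (6.47% higher, 5.93% lower). The split into higher and lower depends on the scaling. With plain library totals it was 561 higher and 781 lower with shLMO2-1, 568 and 833 with shLMO2-2, and 793 and 1284 for the mean, against 668 and 571, 726 and 594, and 951 and 872 in the same order with TMM scaling. The call with shLMO2-1 was lost without control replicate 2 (-1.43, edgeR adjusted p = 0.0770), control replicate 3 (-1.30, edgeR adjusted p = 0.114), shLMO2-1 replicate 2 (-1.25, edgeR adjusted p = 0.113) or shLMO2-1 replicate 3 (-1.32, edgeR adjusted p = 0.105). The calls with shLMO2-2 and for the mean held with each of the 9 libraries left out in turn. At 3 to 6 counts a library with shLMO2-2, the level there rests on few reads, and the gene entered the test through the groups in which it was higher.

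The 2 hairpins differed in their CSF2RA level by a log2 fold change of -2.05 (SE 0.433, 95% interval -3.01 to -1.10, edgeR adjusted p = 0.0641), which did not pass. It passed with DESeq2 (-2.09, adjusted p = 0.0126) and with edgeR and no filter on low counts (-2.05, adjusted p = 0.00841). The genes whose levels were most like CSF2RA were chosen after its values were seen. They were RBL2, a relative of the retinoblastoma protein (r = 0.975), BTG1, an antiproliferative gene, IFNGR1, a chain of the interferon gamma receptor, PNRC1 and TMEM64 (r = 0.973 each). TMEM64 was at 4.57 ± 0.554, 1.75 ± 0.273 and 0.463 ± 0.132 CPM (SD, n = 3 each) in control, shLMO2-1 and shLMO2-2. The most opposite were LXN (r = -0.980), RPL11 (r = -0.975) and COX6C (r = -0.972).

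The neighbours of CSF2RA in the pseudoautosomal region did not fall with it. Of 13 listed genes 9 were tested, and for the mean of both hairpins 5 rose, none fell and 4 did not pass. Of all tested genes 6.47% rose and 5.93% fell in that contrast. The median log2 fold change of the 9 was 0.31, against -0.00207 for all tested genes. ASMTL rose by 0.67 (edgeR adjusted p = 0.00232), from 15.7 ± 2.11 CPM in control to 24.0 ± 1.65 and 25.9 ± 1.85 CPM (SD, n = 3 each). SLC25A6, the mitochondrial carrier of adenine nucleotides and the nearest tested gene at 75771 bases, rose by 0.49 (edgeR adjusted p = 0.00368). Both calls held with each library left out. DHRSX (0.43), GTPBP6 (0.31) and CD99 (0.29), a surface glycoprotein, rose as well (edgeR adjusted p = 0.0223, 0.0296 and 0.0136). These 3 calls were lost without control replicate 3, DHRSX and GTPBP6 also without control replicate 1, and GTPBP6 in 7 of 9 such fits. By single hairpin, DHRSX and CD99 did not pass with shLMO2-1 (edgeR adjusted p = 0.0623 and 0.0834). GTPBP6 did not pass with shLMO2-2 (edgeR adjusted p = 0.0877). DHRSX overlaps ZBED1, whose log2 fold change was 0.07. IL3RA lies in the same region but could not be tested.

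**Figure D2:**
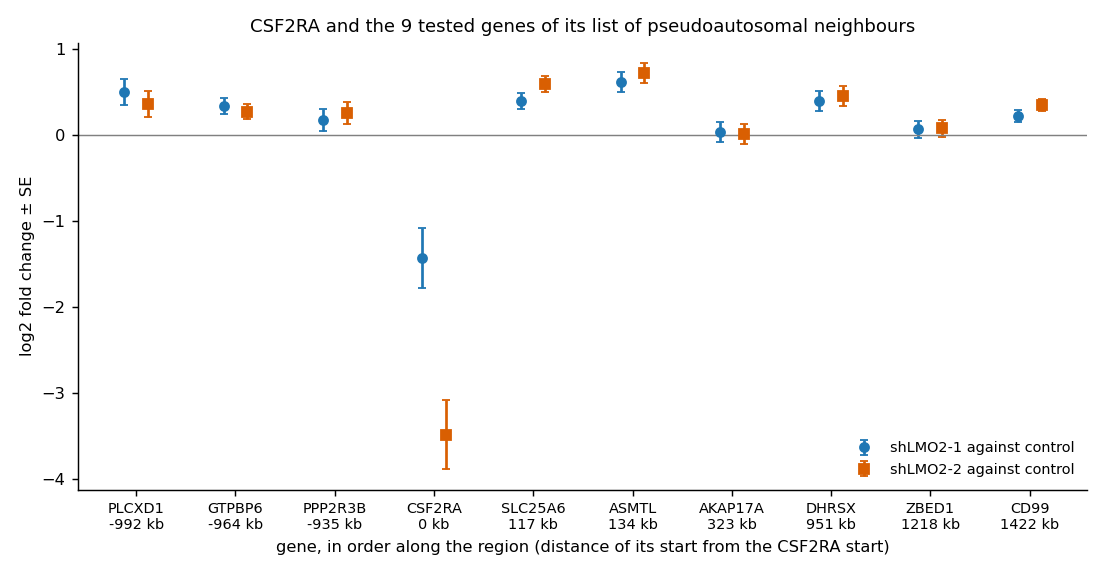
Log2 fold change (± SE of the fit) of CSF2RA and of its 9 tested listed neighbours in pseudoautosomal region 1, for shLMO2-1 and shLMO2-2 against the same controls, in order along the region with the distance of each start from that of CSF2RA in kb. CSF2RA lies at -1.43 and -3.48, and none of the 9 neighbours lies below 0 with TMM scaling.

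CSF2RB, the beta chain that CSF2RA and IL3RA need, did not differ detectably. Its counts were 34, 22 and 36 in control, 31, 36 and 23 with shLMO2-1, and 44, 41 and 29 with shLMO2-2, and the groups overlapped. The log2 fold change was 0.11 with shLMO2-1 (95% interval -0.56 to 0.78, edgeR adjusted p = 0.874) and 0.04 with shLMO2-2 (95% interval -0.62 to 0.69, edgeR adjusted p = 0.952). IL3RA had 1 count in 1 shLMO2-2 library and none in the other libraries, so CSF2RB was measured with CSF2RA at low levels and nearly no IL3RA.

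CSF1R, the receptor tyrosine kinase of macrophage colony-stimulating factor, had 97, 76 and 75 counts in control, 100, 91 and 110 with shLMO2-1, and 121, 115 and 86 with shLMO2-2. All 3 groups overlapped. Its log2 fold change was 0.43 with shLMO2-1 (95% interval -0.03 to 0.90, edgeR adjusted p = 0.237) and 0.10 with shLMO2-2 (95% interval -0.36 to 0.57, edgeR adjusted p = 0.801). Control replicate 1 was the highest control at 5.62 CPM. Without it the shLMO2-1 difference was 0.62 (edgeR adjusted p = 0.0988) and that with shLMO2-2 was 0.29 (edgeR adjusted p = 0.465). CSF1R overlaps the processed pseudogene RPL7P1 and the small RNA RF00019 on the opposite strand.

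CSF1, which encodes macrophage colony-stimulating factor, was the one ligand among the members with a substantial level. It lies on chromosome 1 from 109910242 to 109930992. Its levels were 46.3, 43.3 and 45.1 CPM in control, 44.7, 38.9 and 35.8 CPM with shLMO2-1, and 34.1, 30.2 and 29.4 CPM with shLMO2-2. The shLMO2-2 libraries lay below all others, while shLMO2-1 replicate 1 lay among the controls. CSF1 fell by 0.52 on the log2 scale with shLMO2-2 (SE 0.0949, edgeR adjusted p = 0.00829), so control was 1.44 times shLMO2-2. With shLMO2-1 the value was -0.17 (SE 0.0949, edgeR adjusted p = 0.303). For the mean of both hairpins CSF1 fell by 0.35 (edgeR adjusted p = 0.0196), a call lost without control replicate 3 (-0.34, edgeR adjusted p = 0.0695). The difference between the hairpins was -0.35 (SE 0.0955, edgeR adjusted p = 0.161).

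The other ligands, apart from IL34, were near or below detection. CSF2, which encodes granulocyte-macrophage colony-stimulating factor, had 3, 1 and 1 counts in control, 1, 6 and 5 with shLMO2-1, and 1, 2 and 3 with shLMO2-2. The groups overlapped. CSF3, the ligand of CSF3R, had no count in any library, and a count of 0 allows at most 0.130 to 0.198 CPM in a single library (3 counts, for counting error only). IL3 and IL5, ligands of receptors that share CSF2RB, were also at 0 throughout. IL34, the other ligand of CSF1R, went from 5.68 ± 1.11 CPM in control to 3.43 ± 0.439 and 3.19 ± 1.23 CPM (SD, n = 3 each). It fell by 0.78 for the mean of both hairpins (edgeR adjusted p = 0.0426), and by 0.73 and 0.83 with shLMO2-1 and shLMO2-2, neither of which passed (edgeR adjusted p = 0.119 and 0.0750). The call for the mean was lost in 7 of the 9 fits without 1 library, for example without control replicate 3 (-0.71, edgeR adjusted p = 0.147).

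Apart from CSF3R, 4 members were tested. With shLMO2-1, 1 of them was called (CSF2RA), where 3.88% of all tested genes were called lower. With shLMO2-2 and for the mean of both hairpins, 2 were called lower (CSF2RA and CSF1), beside 4.04% and 5.93% of all tested genes. None of the 5 tested members was called between the hairpins. All contrasts against control share the same 3 control libraries.

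**Figure D3:**
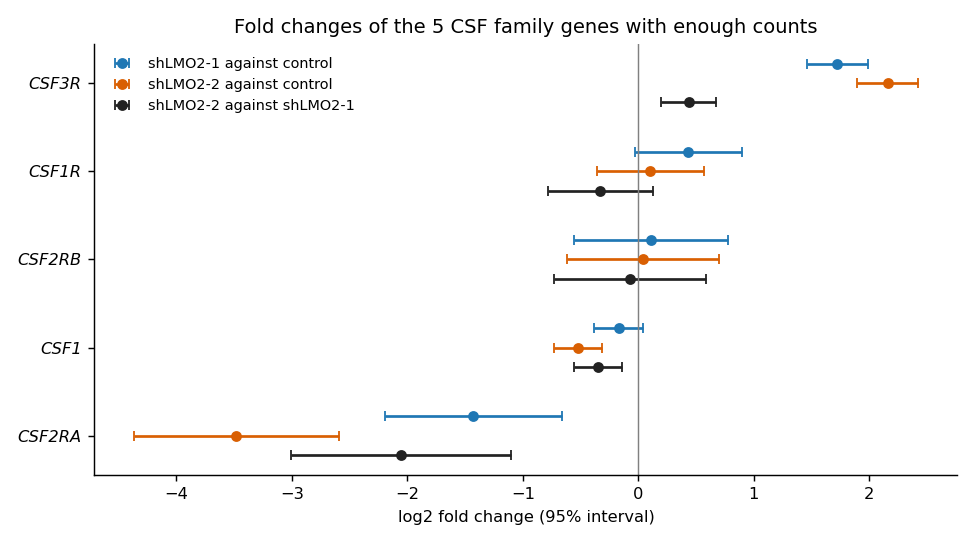
Log2 fold change of the 5 tested members with the 95% interval of the fit, not adjusted over genes, for shLMO2-1 against control, shLMO2-2 against control and shLMO2-2 against shLMO2-1. CSF2RA lies to the left of 0 with both hairpins, CSF1 is clear of 0 with shLMO2-2 at -0.52, and the intervals of CSF2RB and CSF1R include 0. CSF3R is drawn at 1.72 and 2.16 against control. Its intervals there are a description and no test, since it was chosen by those values.

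To compare levels between genes, CPM was divided by the length of each gene's annotated exons in kb. In control CSF1 was highest at 8.28 ± 0.279 CPM per kb (SD, n = 3). CSF1R (0.756 to 1.09) and CSF2RA (0.559 to 0.786) overlapped below it, then came CSF3R (0.405 to 0.426). CSF2RB (0.225 to 0.394) was the lowest of the 5, just under CSF3R. With shLMO2-1 the order was CSF1 at 7.35, CSF3R at 1.38, CSF1R at 1.18, CSF2RB at 0.358 and CSF2RA at 0.247 CPM per kb, where CSF3R and CSF1R overlapped, as did CSF2RB and CSF2RA. With shLMO2-2 it was CSF1 at 5.77, CSF3R at 1.87, CSF1R at 0.935, CSF2RB at 0.341 and CSF2RA at 0.0586 CPM per kb, with no overlap between neighbours.

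The balance of receptor chains therefore differed between the groups. Per kb, CSF3R was 0.725, 0.627 and 0.542 times CSF2RA in the controls. It was 3.75, 7.12 and 7.35 times CSF2RA with shLMO2-1, and 27.1, 24.6 and 55.9 times with shLMO2-2. On that scale CSF3R was below CSF2RA in every control and above it in every hairpin library. The order in control rests on the exon lengths, 8429 bases for CSF3R and 3830 for CSF2RA. In CPM, CSF3R lay above CSF2RA in every control as well (3.42, 3.53 and 3.59 against 2.14, 2.56 and 3.01). The alpha chain CSF2RA was 1.42, 2.97 and 2.07 times its partner CSF2RB in control, 1.01, 0.435 and 0.681 times with shLMO2-1, and 0.178, 0.191 and 0.135 times with shLMO2-2. CSF3R was 0.372, 0.555 and 0.554 times CSF1R in control, 1.21, 1.26 and 1.08 times with shLMO2-1, and 1.81, 1.73 and 2.62 times with shLMO2-2. These ratios use CSF3R against control and so are descriptions, and lengths of annotated exons need not be those of the transcripts present. With shLMO2-2 the ratios that involve CSF2RA rest on its 6, 6 and 3 counts, so their size is uncertain. In shLMO2-2 replicate 3, counting error alone put CSF2RA anywhere from 0.0278 to 0.394 CPM (95% interval).

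**Figure D4:**
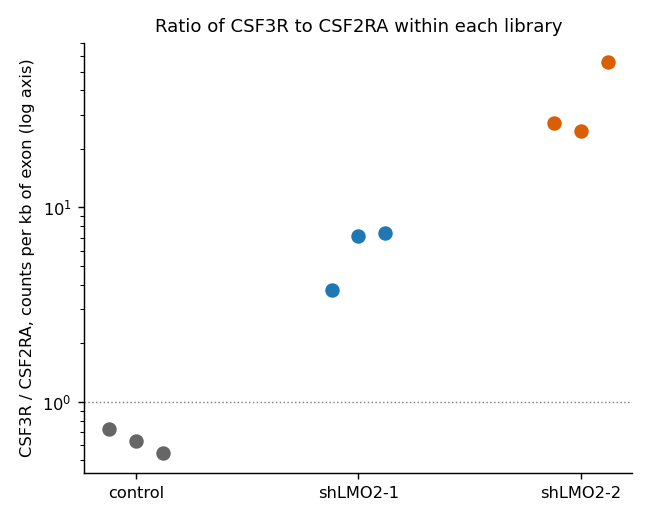
Ratio of CSF3R to CSF2RA per kb of annotated exon in each of the 9 libraries, on a log axis, by group, with a dotted line at equal levels. The ratio runs from 0.542 to 0.725 in control, from 3.75 to 7.35 with shLMO2-1 and from 24.6 to 55.9 with shLMO2-2. The shLMO2-2 ratios rest on 6, 6 and 3 counts of CSF2RA.

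Beyond the members, 155 genes of the pathway and its setting were listed by role, and 109 could be tested. For the mean of both hairpins 16 rose and 10 fell, with a median log2 fold change of 0.04. Of all tested genes 6.47% rose and 5.93% fell in that contrast, the background for the list counts that follow. With shLMO2-1, 12 rose and 7 fell (4.54% and 3.88% of all tested genes), and with shLMO2-2, 11 rose and 6 fell (4.94% and 4.04%). Between the hairpins 2 were called (0.768% of all tested genes), IL7R and BCL6, the latter call lost without most single libraries.

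Among 25 other receptor chains of the same structural class, 13 were tested, 1 rose and 1 fell (median -0.08). IL7R, the interleukin-7 receptor chain, rose by 0.62 for the mean (edgeR adjusted p = 0.00307). It stood at 13.3 ± 0.607 CPM in control, 27.1 ± 3.54 CPM with shLMO2-1 and 15.4 ± 1.08 CPM with shLMO2-2 (SD, n = 3 each), and the change against control passed with shLMO2-1 (1.03, edgeR adjusted p = 0.000424) but not with shLMO2-2 (0.21, edgeR adjusted p = 0.277). The hairpins themselves differed by -0.82 (edgeR adjusted p = 0.00552). LEPR, the leptin receptor, fell by 0.58 (edgeR adjusted p = 0.00105), from 29.2 ± 2.04 CPM to 19.4 ± 1.245 and 19.65 ± 0.225 CPM (SD, n = 3 each). Both calls for the mean held with each library left out. Of the receptor tyrosine kinases related to CSF1R, 3 of 4 were tested and none was called. KIT was the most abundant at 13.6 CPM in control, and the median of the 3 was -1.28, set by PDGFRA and FLT3 at 1.497 and 0.598 CPM in control.

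The signal transducers divided. Of 34 listed, 33 were tested, 3 rose and 6 fell (median -0.04). STAT3, the main STAT of CSF3R, fell by 0.25 (edgeR adjusted p = 0.00537), from 433 ± 9.64 CPM to 364 ± 13.1 and 366 ± 3.0003 CPM (SD, n = 3 each). PLCG2, a phospholipase, fell by 0.50 (edgeR adjusted p = 0.000444), and VAV1, a signalling protein best known from blood cells, fell by 0.73 (edgeR adjusted p = 0.00786). These 3 calls held with each library left out. STAT5A fell by 0.24 (edgeR adjusted p = 0.0397), whereas its close relative STAT5B was at 0.22 (edgeR adjusted p = 0.0657) and JAK2, the kinase of CSF3R and CSF2RB, at -0.35 (edgeR adjusted p = 0.0568). The kinases AKT1, TYK2 and SYK rose by 0.24, 0.20 and 0.24 (edgeR adjusted p = 0.0202, 0.0242 and 0.0382). The calls of STAT5A and SYK were each lost in 8 of 9 fits without 1 library, with adjusted p-values up to 0.0938 (without control replicate 2) and 0.112 (without control replicate 1). Those of TYK2 and AKT1 were lost in 5 and 4 such fits, with adjusted p-values up to 0.0658 (without control replicate 1) and 0.0685 (without control replicate 3). By single hairpin, VAV1, STAT5A, TYK2 and SYK did not pass with shLMO2-1 (edgeR adjusted p = 0.0776, 0.474, 0.0919 and 0.151). AKT1 did not pass with shLMO2-2 (edgeR adjusted p = 0.142).

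Of 22 feedback regulators, 21 were tested, 2 rose and none fell (median 0.08). DUSP6, a phosphatase of ERK, rose by 0.73 (edgeR adjusted p = 0.00324), from 5.57 ± 0.562 CPM to 10.85 ± 0.533 and 7.82 ± 0.698 CPM (SD, n = 3 each). SPRY2, an inhibitor of RAS signalling, rose by 0.37 (edgeR adjusted p = 0.0249), a call lost in 4 of the 9 fits without 1 library, for example without control replicate 2 (0.35, edgeR adjusted p = 0.0709). With shLMO2-2 SPRY2 did not pass (0.30, edgeR adjusted p = 0.105). SOCS3, the inhibitor induced by STAT3 that binds CSF3R, was at -0.01 (edgeR adjusted p = 0.985), and CISH, a target of STAT5, at 0.10 (edgeR adjusted p = 0.746).

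Few target genes of STAT3 and STAT5 were called. Of 20 listed, 17 were tested, and for the mean of both hairpins 2 rose and 2 fell (median -0.10). Of all tested genes 6.47% rose and 5.93% fell in that contrast. With shLMO2-1, 2 of the 17 rose and 2 fell, and with shLMO2-2 none was called. BCL2L1, which encodes a survival protein, rose by 0.24 (edgeR adjusted p = 0.0229) and CCND1, cyclin D1, by 0.27 (edgeR adjusted p = 0.0460). VEGFA, the angiogenic factor, fell by 0.30 (edgeR adjusted p = 0.0235) and MCL1, a further survival gene, by 0.19 (edgeR adjusted p = 0.0341). All 4 calls for the mean were lost without control replicate 3, with adjusted p-values of 0.0759, 0.123, 0.0665 and 0.126 in that order. Each was lost in 3 to 8 of the 9 fits without 1 library. MCL1 passed with neither single hairpin (edgeR adjusted p = 0.0694 with shLMO2-1 and 0.0784 with shLMO2-2). BCL6, a transcriptional repressor, was 0.51 higher with shLMO2-2 than with shLMO2-1 (edgeR adjusted p = 0.0401), at 19.5 ± 1.91 CPM with shLMO2-1 against 28.1 ± 1.96 CPM in control and 27.7 ± 1.35 CPM with shLMO2-2 (SD, n = 3 each). That call was lost in 7 of the 9 fits without 1 library, with adjusted p-values up to 0.244 (without shLMO2-1 replicate 2).

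Of 16 myeloid transcription factors, 9 were tested and none was called (median 0.07). SPI1, the main activator of CSF receptor genes in myeloid cells, had 4 counts in total. Its mean was 0 CPM in control, 0.0382 with shLMO2-1 and 0.0299 with shLMO2-2. TAL1, a partner of LMO2, had 2 counts in total (0.0364 CPM in control and 0 with both hairpins). Both have too few counts to compare the groups. GATA1 was at 0 in all libraries and GATA2 was at 10.4, 11.2 and 13.5 CPM. LDB1, a further partner, was at 28.3, 31.4 and 30.4 CPM in the same order of groups. Of 20 granulocyte genes only 4 could be tested, and 3 of these rose. S100A8 rose by 1.06 (edgeR adjusted p = 0.00171), from 14.8 ± 4.02 CPM to 23.8 ± 3.61 and 40.7 ± 2.58 CPM. LCN2 rose by 0.95 (edgeR adjusted p = 0.000844), from 14.95 ± 0.547 CPM to 28.5 ± 1.26 and 29.1 ± 6.10 CPM, and S100A9 rose by 0.56 (edgeR adjusted p = 0.00684), from 223 ± 35.0 CPM to 293 ± 36.8 and 369 ± 29.8 CPM (SD, n = 3 each). All 3 are also made by epithelial cells. S100A9 did not pass with shLMO2-1 (0.40, edgeR adjusted p = 0.0640). CD177, the other tested gene of the list, was at -0.55 for the mean (edgeR adjusted p = 0.353). MPO, ELANE, AZU1 and CTSG, which define granules of neutrophils, were among 7 of the 20 genes with no count in any library. Others had few, such as PRTN3 with 14 counts in total, MMP9 with 16 and S100A12 with 18. Among the blood cell markers the summed level was 6.66 to 8.91 CPM in control, 7.26 to 9.68 with shLMO2-1 and 6.46 to 7.19 with shLMO2-2. Within that list CD14 and CD68 rose, by 1.21 and 1.32 (edgeR adjusted p = 0.0163 and 0.0216), and ITGAM fell by 0.95 (edgeR adjusted p = 0.00378), while CD3E, LYZ and HBB were at 0 throughout. CD68 did not pass with shLMO2-2 (1.15, edgeR adjusted p = 0.0679), nor ITGAM with shLMO2-1 (-0.63, edgeR adjusted p = 0.0618).

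**Figure D5:**
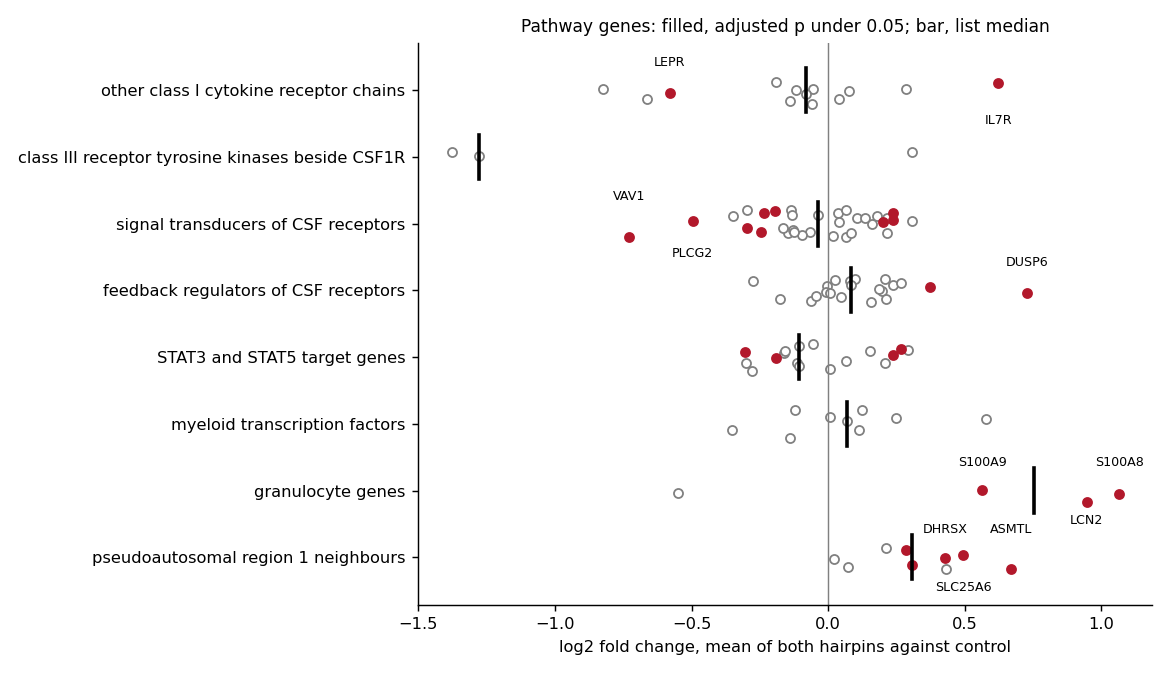
Log2 fold change for the mean of both hairpins against control of every tested gene of 8 pathway lists, with filled points for genes at an edgeR adjusted p under 0.05 and a bar at each list's median. Called genes lie on both sides of 0 among the transducers and STAT targets, and on the higher side among the granulocyte and pseudoautosomal genes.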

How the data were processed

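RNA was measured in 9 libraries of MDA-MB-468 cells, 3 each of control, shLMO2-1 and shLMO2-2, grouped by the plasmid in their labels. The authors deposited 1 table of estimated counts per gene symbol. The submitters' processing notes name Salmon 0.12, DESeq2 1.22.2 and the build GRCh38.p12, and the annotation release and use of strand are not given in the sources used here. Between 11.7% and 12.8% of a library's values were not whole, and all were rounded before testing.

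In R 4.3.3, edgeR 4.0.16 scaled the libraries by TMM. Low genes were dropped by filterByExpr at a minimum count of 10 and a minimum total of 15, and LMO2 was added back. This left 14709 genes holding 99.9% of the counts. A quasi-likelihood fit of all 9 libraries in 3 groups gave 4 contrasts, with Benjamini-Hochberg adjustment over all tested genes and calls at 0.05. Every adjusted p-value is from edgeR unless another tool is named. CPM uses TMM-scaled totals, and with 15494486 to 23069456 counts a library a count of 0 allows up to 0.130 to 0.198 CPM at 3 counts. Such limits cover counting error only, since PCR copies without molecular identifiers are not independent molecules. Levels were correlated as log2 of CPM plus 0.5. The added 0.5 CPM is more than CSF2RA reached in any shLMO2-2 library, so it narrows the differences of low genes.

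The members and gene lists were chosen with earlier results of these data known. Named were the members, LMO2, all genes a list had called for the mean of both hairpins (of more than 6, the 3 with the smallest p in each direction), JAK2, STAT3, STAT5A, STAT5B, SOCS3 and CISH, the 5 genes most like and 3 least like CSF3R, and its tested coding neighbours. The genes most like CSF2RA, BCL6, LDB1, and the marker and low genes named were added after values were seen. Among 8 stromal and endothelial markers 2 were at 0, 3 were tested and none was called. Their summed level was 11.6 to 18.0 CPM in control, 15.4 to 19.6 with shLMO2-1 and 16.1 to 19.0 with shLMO2-2. Positions and exon lengths came from GENCODE release 29 by symbol, and upstream sequences from RefSeq (GRCh38.p14), which had entries for 5 of the 8 members, but not for CSF2RB, CSF1 and CSF3. Alternatives were other scalings and filters, limma 3.58.1 (voom), DESeq2 1.42.0, a replicate block, fits of only the groups compared, a threshold of 0.01, and leaving out each library. The scripts were tested on simulated data.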

Additional observations from a re-analysis of the deposited data

Results flagged for a closer look

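Of the pathway genes and of the genes most like CSF2RA, 4 differed between the hairpins by the direct test (edgeR). IL7R was lower with shLMO2-2 than with shLMO2-1 by a log2 fold change of -0.82 (SE 0.111, adjusted p = 0.00552), and TMEM64 by -1.90 (SE 0.296, adjusted p = 0.0127). IFNGR1 was lower by -0.30 (SE 0.0585, adjusted p = 0.0462), and BCL6 was higher by 0.51 (SE 0.0973, adjusted p = 0.0401). TMEM64 and IFNGR1 were named for their likeness to CSF2RA over the same libraries, so their differences are not independent of its pattern. The TMEM64 call was lost without shLMO2-1 replicate 2 (-1.78, adjusted p = 0.0816), shLMO2-2 replicate 2 (-1.98, adjusted p = 0.0614) or shLMO2-2 replicate 3 (-1.69, adjusted p = 0.0576). That of BCL6 was lost in 7 of the 9 fits without 1 library and that of IFNGR1 in 8, with adjusted p-values up to 0.244 and 0.218.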

How the results depend on the processing

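No called value turned its direction under any alternative run. Values near 0 that were not called did cross it, among them CSF2RB with shLMO2-1 (-0.11 to 0.24) and with shLMO2-2 (-0.18 to 0.19), and for the mean of both hairpins CISH (-0.05 to 0.25) and SOCS3 (-0.13 to 0.11). MRPS15 with shLMO2-1 ranged from -0.13 to 0.06. The test of CSF1 between the hairpins passed with DESeq2 (-0.35, adjusted p = 0.0492) and with the replicate block (-0.35, adjusted p = 0.0425), and that of CSF2RA with DESeq2 (-2.09) and without a filter on low counts (-2.05). With 1 library left out, CSF1 for the mean of both hairpins lay between -0.39 and -0.32, and CSF2RA with shLMO2-1 between -1.78 and -1.25. CSF2RA has no value under the filter of 10 counts in every library. The threshold of 0.01 was applied to the counts of called pathway genes alone, and the fit of only the groups compared gives no mean of both hairpins.

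Replicate numbers are shared between groups, but no label says what they mark. Deviations of same-numbered libraries correlated from -0.13 to 0.47 over 9 pairs, and those of unlike number from -0.50 to 0.35 over 18. The same-numbered pairs ran from 0.39 to 0.47 for replicates 1, from -0.13 to 0.05 for replicates 2 and from 0.27 to 0.38 for replicates 3. Of 9 libraries, 6 correlated best with 1 of their own number. With the replicate block the called genes numbered 3024 for the mean of both hairpins, 2214 with shLMO2-1, 2377 with shLMO2-2 and 257 between the hairpins, against 1823, 1239, 1320 and 113 without it, of which 1820, 1238, 1320 and 113 were shared. The block gave 29, 30 and 7 pathway genes with shLMO2-1, with shLMO2-2 and between the hairpins, against 19, 17 and 2.

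Fits of only the groups compared called 695 genes with shLMO2-1, 776 with shLMO2-2 and 189 between the hairpins, with 11, 11 and 5 pathway genes. Between the hairpins, no filter gave 378 genes and 6 pathway genes, and DESeq2 gave 316 and 6. At a threshold of 0.01 there were 11 pathway genes for the mean, 8 with shLMO2-1, 8 with shLMO2-2 and 1 between the hairpins. Leaving out 1 library gave 947 (without control replicate 3) to 1592 genes for the mean, 546 (without shLMO2-1 replicate 3) to 1397 with shLMO2-1, 494 (without shLMO2-2 replicate 2) to 1243 with shLMO2-2, and 38 (without shLMO2-1 replicate 2) to 239 (without control replicate 1) between the hairpins. The pathway genes then numbered 13 to 24, 10 to 21, 9 to 16 and 1 to 6. Fits without 1 library and fits of only the groups compared use fewer samples, and the cause of these shifts was not tested. Depth limits CSF2RA, CSF2, IL3RA and LMO2, which rest on few counts.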
